A study of Homo sapiens with 4 samples.

Results

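Expression of 10 genes of secreted liver proteins was followed in sorted fractions of Huh7, an established human hepatocellular carcinoma line. They were ALB, TTR, TF, RBP4, HP, HPX, AMBP, SERPINA1, AHSG and ORM1, a list of plasma carriers and acute-phase proteins chosen with earlier results of these data known. Each was found by symbol among array probes that carry exactly 1 gene symbol. All 10 had a value, 1 probe each, out of 18377 genes measured in this way. The cells had been sorted by flow cytometry in 2 ways, and the groups were CD133+ with CD133- cells, and ALDH+ with ALDH- cells, all of Huh7, with no treatment named. CD133 is a surface glycoprotein encoded by PROM1, ALDH stands for aldehyde dehydrogenase, and the series frames the positive fractions as cancer stem cells. RNA of each fraction was hybridised to 1 Affymetrix array, 4 arrays in all, so a difference between the fractions of a sort carries no replicate error and no p-value. One line is the model for all groups, and the labels do not say whether each array had a culture of its own, so the p-values below measure only the spread between these arrays.

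Hepatocytes make most proteins of blood plasma and release them through the secretory pathway. Carriers such as albumin and transferrin hold hormones, fatty acids, metals or vitamins in solution, and acute-phase proteins change in plasma when inflammation, chiefly through interleukin-6, acts on the liver. Haptoglobin, hemopexin, orosomucoid and alpha-1-antitrypsin are known to increase in that response, whereas albumin, transthyretin, transferrin, retinol-binding protein and fetuin-A are known to decrease. Hepatocellular carcinoma lines keep such genes active to differing degrees, and their transcripts are used as signs of hepatocyte character.

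Values are log2 expression levels from robust multi-array averaging (RMA), and each difference was taken as positive minus negative fraction of the same sort. Over all 28869 probes the array medians lay between 4.92 and 5.04, and the arrays correlated with each other at r of 0.982 to 0.989. A floor was set at 4.98, the median of all values, and a gene counted as above it where the brighter array of a sort reached it. All 10 genes lay above the floor, and above the 75th percentile of all values (6.48), on all 4 arrays. The transcript of the sorted protein checked the first sort: PROM1 stood at 9.0 in CD133+ and 5.32 in CD133- cells. In the ALDH sort PROM1 stood at 7.11 in ALDH+ and 8.39 in ALDH- cells, and ALDH1A1, a main source of ALDH activity, at 11.14 in ALDH+ and 11.10 in ALDH- cells, so that these transcripts do not check the ALDH labels. Of the hepatocyte markers, 7 of 8 were measured and all 7 were above the floor, with AFP between 11.56 and 11.86. PTPRC, the pan-leukocyte marker, lay between 2.45 and 2.64, and DCN, a fibroblast proteoglycan, between 2.63 and 2.85, below the floor on every array. Other markers of these cell types lay above it. Of the 4 leukocyte markers measured, CD14 (5.63 to 6.23) was above the floor on every array. Of the 5 fibroblast markers, COL1A1 (5.96 to 6.46), COL1A2 (5.81 to 6.27) and PDGFRB (5.45 to 5.80) were above it on every array.

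In CD133+ cells 9 of the 10 plasma protein genes were lower than in CD133- cells, and the exception was TTR. The direction alone says little, since 57.1% of the 11591 genes above the floor were lower in this sort. The size of the differences stood further from the rest: HP, AHSG and ORM1, 3 of the 10, were at least 2-fold lower, against 0.164% of all genes. The 10 were chosen with earlier results of these data known, so this excess describes them and is no independent support. At 1.5-fold or more, either way, there were 4 of the 10 with TTR, against 4.63% of all genes. The median difference of the 10 was -0.38, beside -0.04 for all genes above the floor. Between the ALDH fractions the same genes differed less: 6 were higher and 4 lower in ALDH+ cells, against 48.5% and 51.5% of 11879 genes, with a median of 0.14 beside -0.01. None of the 10 reached 2-fold there, against 1.57% of all genes, and none reached 1.5-fold, against 10.8%. The count at 1.5-fold hung on TTR: with each pair centred or with loess, TTR passed, 1 of the 10 against 11% (centred) or 10.2% (loess) of genes. In bulk RNA of a sorted fraction, fewer cells that express a gene and less transcript per cell cannot be told apart.

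**Figure D1:**
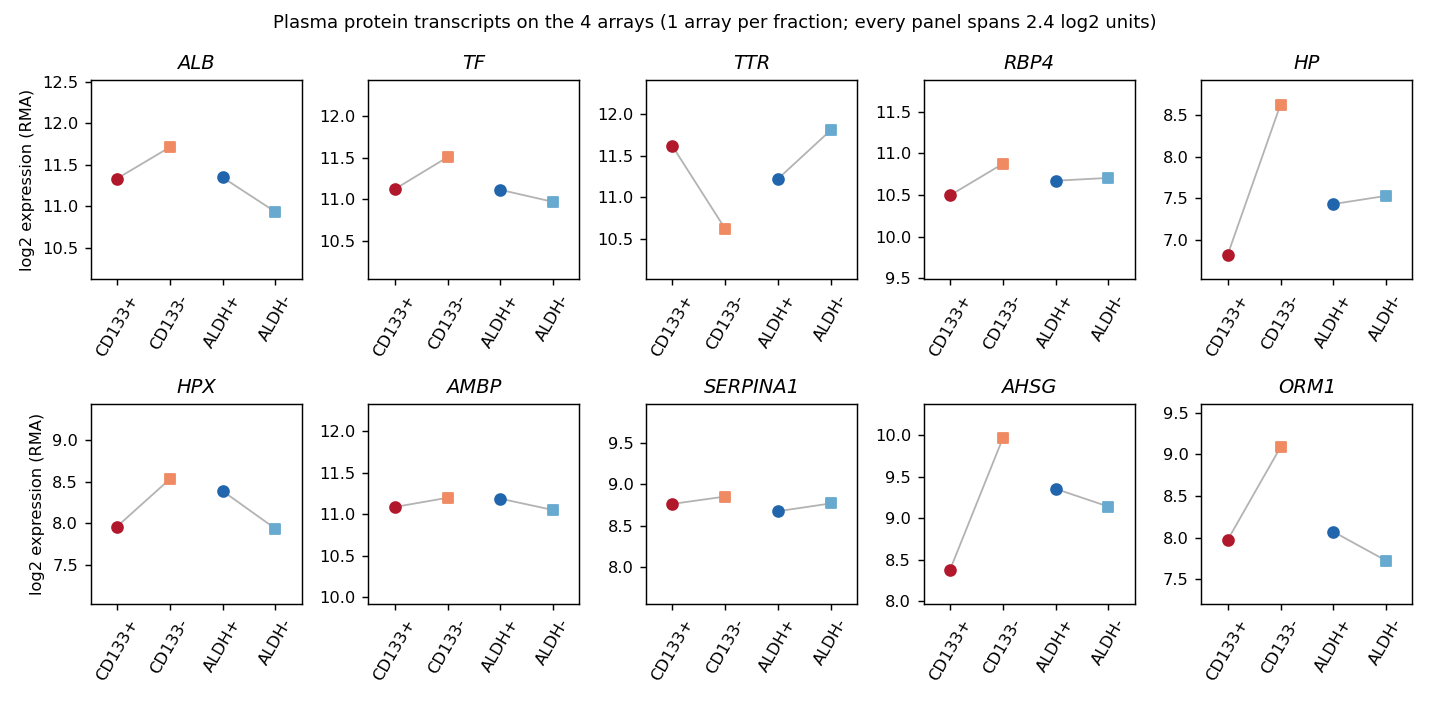
Log2 expression of each plasma protein gene (y axis, RMA) on the 4 arrays (x axis, circles for positive and squares for negative fractions, a grey line joining the fractions of a sort); every panel spans the same number of log2 units, and there is 1 array per fraction, so no error bar. CD133- cells hold the highest point in 9 of 10 panels, and in the TTR panel they hold the lowest.

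HP, the gene of haptoglobin, which binds haemoglobin freed from red cells, showed the largest difference of the 10. Its log2 level was 6.82 in CD133+ and 8.63 in CD133- cells, 3.49-fold lower in the positive fraction. No gene among the 11591 above the floor had a lower difference in this sort. In the ALDH sort HP stood at 7.43 in ALDH+ and 7.53 in ALDH- cells, a difference of -0.10. Both ALDH fractions thus lay between the CD133 fractions, the nearer of them 0.61 above CD133+ and 1.10 below CD133- cells. HPR, the haptoglobin-related paralog, lies beside HP in the genome and can share probe signal with it. HPR was 2.03-fold lower in CD133+ cells (6.44, against 7.46 in CD133- cells), but 1.80-fold higher in ALDH+ cells (6.95, against 6.10 in ALDH- cells). The paralogs therefore differed in the ALDH sort, where HP was almost level. The HPR difference in the CD133 sort missed 2-fold narrowly when arrays were quantile-normalized again (-0.96) or fitted with loess (-0.95).

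AHSG, the gene of fetuin-A, which binds calcium phosphate and hinders mineral deposition, came next. Its level was 8.38 in CD133+ and 9.96 in CD133- cells, 2.99-fold lower in the positive fraction, and 1 gene, HP, had a lower difference. In ALDH+ cells it stood at 9.35 and in ALDH- cells at 9.14, a difference of 0.21. Its order over the 4 arrays was CD133-, ALDH+, ALDH- and CD133+, with both ALDH fractions again between the CD133 fractions.

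ORM1, the gene of orosomucoid or alpha-1-acid glycoprotein, a carrier of basic drugs, was 2.16-fold lower in CD133+ cells. It stood at 7.97 in CD133+ and 9.09 in CD133- cells, and at 8.07 in ALDH+ and 7.72 in ALDH- cells. Here CD133- cells stood apart, 1.02 above the next array, while the other 3 arrays lay within 0.35 of each other. ORM2, its near-identical neighbour, can share probe signal and stood at 7.51 in CD133+ and 8.21 in CD133- cells, against 6.29 in ALDH+ and 6.33 in ALDH- cells. Its differences were -0.70 (CD133) and -0.04 (ALDH). For ORM2 the sorts differed more than the fractions did: the mean of the CD133-sort arrays was 1.55 above that of the ALDH-sort arrays, and for ORM1 it was 0.63 above.

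Haptoglobin and orosomucoid are known to increase in inflammation and fetuin-A to decrease, so the 3 genes with the largest differences are from both arms of the acute-phase response. The promoters of the members were read from RefSeq (GRCh38.p14), which covered 8 of the 10 genes with 12 windows of 250 bases before to 50 after a gene start. HP and TTR had no window there, so their promoters were not searched for motifs. The promoters of AHSG and ORM1 are shown because both were over 2-fold lower in CD133+ cells, and that of ALB because it shared their direction at a smaller size. Capitals mark matches, on either strand, to the TATA box TATAAA, the C/EBP core TTGCNNAA and the HNF4 site CAAAGTNCA, none of which overlap here. The windows are chr3:186612810-186613109 (plus strand) for AHSG, chr9:114322848-114323147 (plus strand) for ORM1 and chr4:73404037-73404336 (plus strand) for ALB.
AHSG: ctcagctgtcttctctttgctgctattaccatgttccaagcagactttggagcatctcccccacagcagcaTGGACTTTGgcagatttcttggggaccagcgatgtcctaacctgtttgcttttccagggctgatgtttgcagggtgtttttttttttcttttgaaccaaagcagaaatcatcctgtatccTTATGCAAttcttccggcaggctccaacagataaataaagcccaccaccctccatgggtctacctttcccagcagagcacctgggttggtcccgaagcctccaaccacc
ORM1: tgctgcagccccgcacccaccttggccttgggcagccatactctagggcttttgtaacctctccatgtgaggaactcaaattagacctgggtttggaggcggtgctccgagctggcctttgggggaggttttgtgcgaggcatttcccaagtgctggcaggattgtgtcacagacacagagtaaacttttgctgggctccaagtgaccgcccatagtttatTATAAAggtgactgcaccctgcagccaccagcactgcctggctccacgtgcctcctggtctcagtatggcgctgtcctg
ALB: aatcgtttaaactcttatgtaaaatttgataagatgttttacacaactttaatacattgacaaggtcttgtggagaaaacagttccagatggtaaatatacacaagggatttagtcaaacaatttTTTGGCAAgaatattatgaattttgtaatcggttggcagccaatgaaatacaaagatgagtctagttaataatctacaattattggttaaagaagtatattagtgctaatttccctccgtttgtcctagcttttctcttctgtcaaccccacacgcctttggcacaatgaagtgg
AHSG held a C/EBP core starting 59 bases and an HNF4 site starting 179 bases before the gene start. ORM1 held a TATA box 29 bases before it and none of the other motifs, while ALB held a C/EBP core at 125 bases. The C/EBP core occurred in 5 of the 12 windows, 1 each of AHSG, ALB, HPX, RBP4 and TF, and in 10.5% of all 35116 windows of this length. The HNF4 site occurred in 1 of the 12, that of AHSG, and in 1.10% of all windows. TATAAA was found in 4 of the 12, 1 of ORM1 and 3 of RBP4, thus in 2 of the 8 genes, and in 11.5% of all windows. Of these RBP4 windows 2 overlap and hold the same site, which in 1 of them lies after the gene start. The STAT3 site TTCNNNGAA was found in 1 of the 12, of RBP4, and in 7.66% of all windows, and the FOXA site TGTTTAC in 0 of the 12 and in 3.42% of all windows. ORM1 and AHSG held no motif in common.

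TTR, the gene of transthyretin, which carries thyroxine and docks retinol-binding protein in plasma, ran against the other 9 genes in the CD133 sort. Its level was 11.61 in CD133+ and 10.62 in CD133- cells, a difference of 0.995 or 1.99-fold, just short of 2-fold. In ALDH+ cells it stood at 11.22 and in ALDH- cells at 11.81, a difference of -0.58, just short of 1.5-fold, which centring (-0.61) and loess (-0.59) took it past and a second quantile normalization (-0.47) did not. Of the genes above the floor 0.880% had a larger absolute difference than TTR for CD133, and 10.8% for ALDH. TTR was the only one of the 10 genes whose lowest level was in CD133- cells. A second quantile normalization (1.09), loess (1.02) and centring each pair (1.0) took it past 2-fold in the CD133 sort.

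RBP4, whose product carries retinol bound to transthyretin, took the opposite direction to TTR in the CD133 sort. It stood at 10.50 in CD133+ and 10.87 in CD133- cells, a difference of -0.38, and 15.4% of genes had a larger absolute one. Its ALDH fractions were nearly level, at 10.67 in ALDH+ and 10.70 in ALDH- cells. The partners in plasma thus had no common direction in the CD133 sort.

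Among the other carriers, ALB and TF shared a pattern of modest size. ALB, the gene of albumin, the most abundant plasma protein, stood at 11.33 in CD133+ and 11.71 in CD133- cells, 1.30-fold lower. In ALDH+ cells its level was 11.35 and in ALDH- cells 10.93, 1.33-fold higher. TF, the gene of the iron carrier transferrin, stood at 11.12 in CD133+ and 11.51 in CD133- cells, 1.31-fold lower, and at 11.11 in ALDH+ and 10.97 in ALDH- cells, 1.11-fold higher. For both genes CD133- cells were the highest array by over 0.36, and CD133+ and ALDH+ cells lay within 0.013 of each other. Differences of this size were common: 15.6% of genes had a larger absolute one than ALB for CD133 and 23.7% for ALDH.

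HPX, the gene of hemopexin, which binds free haem, differed by a similar size in both sorts, with opposite signs. It stood at 7.96 in CD133+ and 8.53 in CD133- cells, 1.48-fold lower, and at 8.39 in ALDH+ and 7.93 in ALDH- cells, 1.37-fold higher. HPX was thus low in CD133+ and ALDH- cells, which differed by 0.03, and high in the other pair, which differed by 0.14.

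AMBP and SERPINA1 were the most even of the 10. AMBP, which encodes the precursor of alpha-1-microglobulin and the protease inhibitor bikunin, spanned 0.15 over the 4 arrays, from 11.05 in ALDH- to 11.20 in CD133- cells, with 11.09 in CD133+ and 11.19 in ALDH+ cells. SERPINA1, the gene of alpha-1-antitrypsin, which inhibits neutrophil elastase, spanned 0.18, at 8.76 in CD133+, 8.85 in CD133-, 8.67 in ALDH+ and 8.77 in ALDH- cells. In the CD133 sort 64.8% of genes had a larger absolute difference than AMBP and 71.7% a larger one than SERPINA1. With 1 array per fraction, no spread is at hand to order such neighbouring levels.

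**Figure D2:**
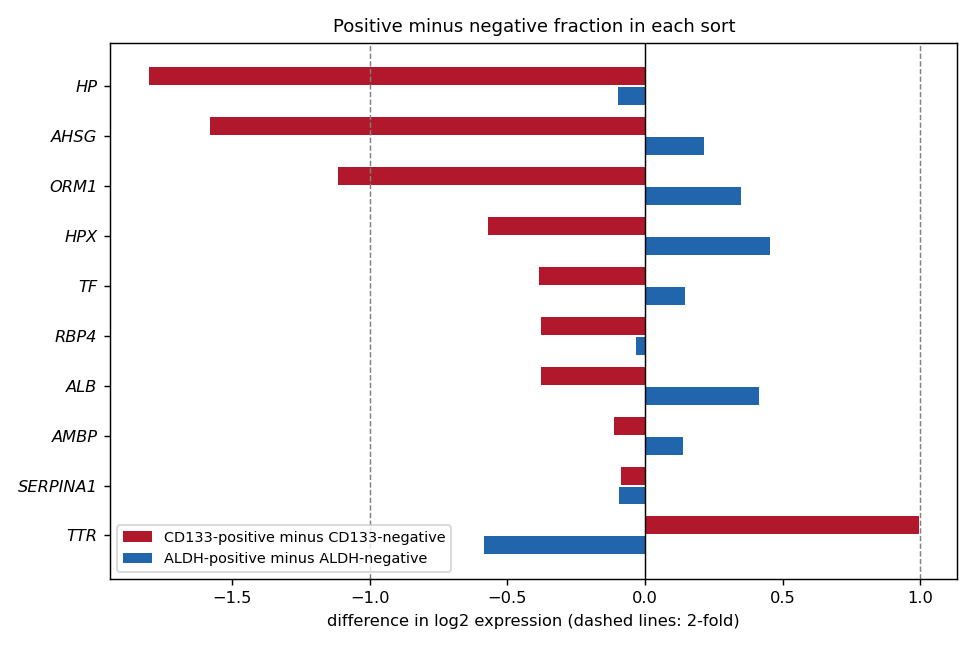
Difference in log2 expression (x axis) for each plasma protein gene (y axis, ordered by the CD133 difference), with red bars for CD133+ minus CD133- and blue bars for ALDH+ minus ALDH- cells; dashed lines mark 2-fold, and bars rest on 1 array per fraction. HP, AHSG and ORM1 pass the line to the left in the CD133 sort, TTR ends at it on the right, and no blue bar reaches it.

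**Figure D3:**
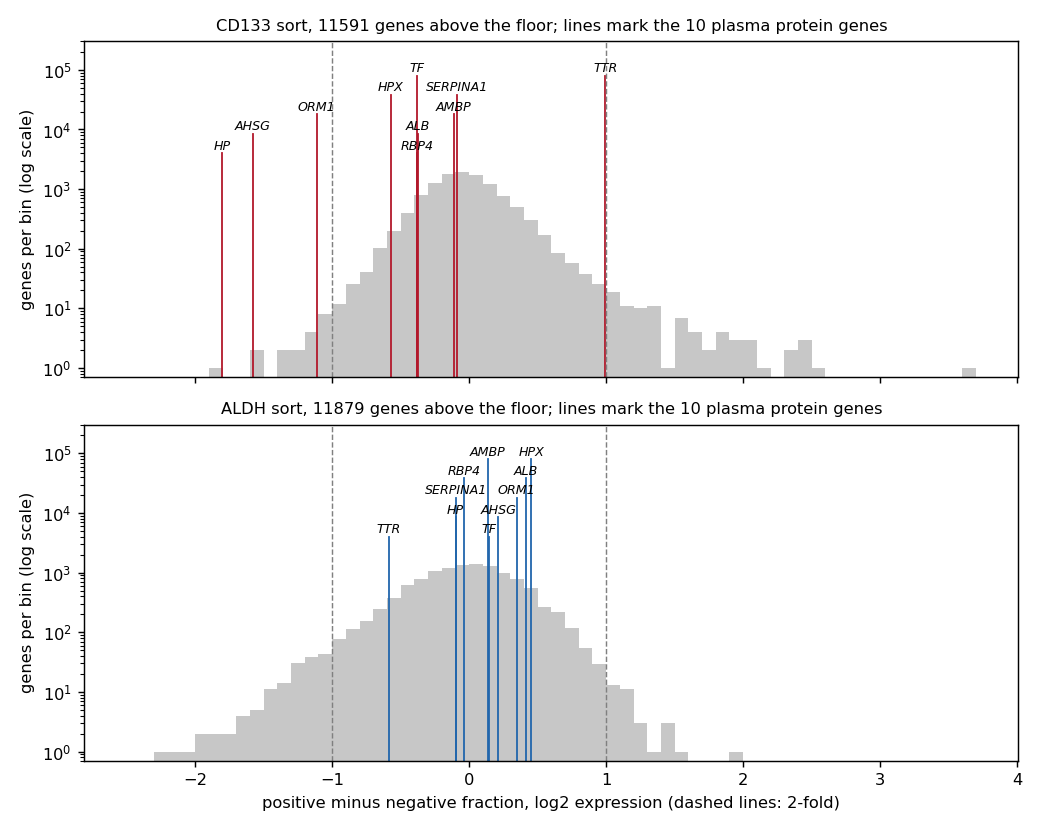
Histogram of the positive minus negative difference in log2 expression (x axis, bins of 0.1) over all genes above the floor (y axis, number of genes on a log scale), CD133 sort above and ALDH sort below; coloured lines mark the plasma protein genes and their height has no meaning. HP and AHSG lie at the far left end of the CD133 distribution, while all 10 genes lie well inside that of the ALDH sort.

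Set side by side, the sorts gave opposite signs for 7 of the 10 genes, against 48.5% of the 11293 genes above the floor in both sorts. Of these, 6 (ALB, TF, HPX, AHSG, AMBP and ORM1) were lower in CD133+ and higher in ALDH+ cells, against 26.6% of all genes, and TTR was the reverse, against 21.9%. HP, RBP4 and SERPINA1 were lower in both positive fractions, against 30.4% of genes. For 7 of the 10 genes the absolute difference was larger in the CD133 sort, against 40.3% of genes, and it was larger in the ALDH sort for ALB, AMBP and SERPINA1. The highest of the 4 levels was in CD133- cells for 9 of the 10 genes, against 35.3% of the 12177 genes above the floor on any array, and in ALDH- cells for TTR (24.2%). The lowest level was in ALDH- cells for 5 genes (29.3% of all genes), in CD133+ cells for 3 (17.2%), in ALDH+ cells for SERPINA1 (32.3%) and in CD133- cells for TTR (21.1%).

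Compared across the sorts, CD133- cells were above ALDH- cells for 9 of the 10 genes, against 56.7% of all genes, with a median of 0.57 beside 0.06. CD133+ cells were above ALDH+ cells for 3 of the 10, against 57.5% of all genes, with a median of -0.10 beside 0.06. The negative fractions were further apart than the positive fractions for 7 of the 10, against 55.4% of all genes, and the exceptions were AHSG, RBP4 and SERPINA1. Sort and processing of the arrays cannot be told apart here, since each sort is 1 pair of arrays.

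Marker status was also fitted over all 4 arrays, as the series sets positive against negative fractions, with the sort as a second term (limma on 12177 genes, Benjamini-Hochberg adjustment). This fit has 1 residual degree of freedom and tests neither sort alone. Its residual is how far the status difference disagrees between the sorts. Each SE of this fit rests on that, moderated over genes, and on no replicate error. It called 0% of genes, 0 of 12177 and 0 of the 10, at an adjusted p under 0.05, while 592 genes and 1 of the 10 were under 0.05 unadjusted. That 1 was HP, with a mean difference of -0.95 ± 0.35 (SE) over both sorts and an adjusted p of 0.889 in limma. HP differed by -1.80 in the CD133 sort. In the ALDH sort it differed by only -0.10, and 76.9% of genes had a larger absolute difference there. AHSG averaged -0.68 ± 0.36 (SE) with an adjusted p of 0.889 in limma, and the other 8 genes had means between -0.38 and 0.21. Single arrays decided this count. In fits of status alone, limma called 38 genes without the ALDH- array, HP among them (-1.50, adjusted p of 0.000271), and 80 genes without the CD133- array, 0 of the 10 among them. In both of these fits every gene was given the same SE, 0.290, and the lone negative array was assumed to vary like the positive ones. The sort term of the main model called 0% of genes, 0 of 12177, with 1402 genes and 0 of the 10 under 0.05 unadjusted. ORM1 had the largest sort term of the 10, 0.63 ± 0.31 (SE) higher in the CD133 sort, with an adjusted p of 0.467 in limma.

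Related genes were then counted from lists of the same biology, 1 difference per gene and no test, among those above the floor in the sort, as the shares of all genes are. Of the other plasma carriers, 10 of 11 were measured and 7 were above the floor: 5 of the 7 were lower in CD133+ cells, against 57.1% of all genes, with a median of -0.55. In ALDH+ cells 3 of the 7 were lower, against 51.5%, with a median of 0.04. APOD, a lipocalin that binds small lipids, was 2-fold or more higher in CD133+ (1.02) and lower in ALDH+ cells (-1.15), in the manner of TTR. It lay near or below the floor (4.13 in CD133- cells), and with values raised to the floor its differences were 0.17 (CD133) and -0.86 (ALDH), both short of 2-fold. HPR was the only other carrier at 2-fold, as given above.

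Of the other acute-phase proteins, 16 of 17 were measured and 15 were above the floor: 12 of the 15 were lower in CD133+ cells, against 57.1% of all genes, with a median of -0.35. In ALDH+ cells 11 of the 15 were higher, against 48.5%, with a median of 0.27. LBP, which hands bacterial lipopolysaccharide to its receptors, was 2.04-fold lower in CD133+ cells (6.69, against 7.72 in CD133- cells) and 1.47-fold higher in ALDH+ cells (7.56, against 7.01 in ALDH- cells). Its CD133 difference also missed 2-fold when arrays were quantile-normalized again (-0.95) or fitted with loess (-0.96). SERPINA3, the gene of alpha-1-antichymotrypsin, was 2.20-fold higher in ALDH+ cells (6.27, against 5.13 in ALDH- cells) and 1.57-fold lower in CD133+ cells (5.71, against 6.36 in CD133- cells). SERPINA3 was the only gene of this list at 2-fold in the ALDH sort, and LBP the only one in the CD133 sort. For the other carriers, 5 of 7 lower in CD133+ cells was not far from the 57.1% of all genes, so their direction says little. Of the acute-phase list, 12 of 15 were lower there, beside the same share. In ALDH+ cells 11 of the 15 were higher, beside 48.5%.

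All 12 genes listed for interleukin-6 and acute-phase signalling, which act upstream, were measured. In CD133+ cells 6 of the 9 above the floor were lower, against 57.1% of all genes, with a median of -0.12, and in ALDH+ cells 5 of 8, against 51.5%, with a median of -0.20. None of the 12 reached 2-fold in either sort, which few genes did. Of all genes above the floor 0.716% were 2-fold higher and 0.164% lower in CD133+ cells. In the ALDH sort 1.57% were 2-fold different either way. The median absolute difference of the signalling genes above the floor was 0.22 (CD133) and 0.27 (ALDH). It was 0.48 (CD133) and 0.18 (ALDH) for the 10 plasma protein genes. For all genes above the floor it was 0.17 (CD133) and 0.23 (ALDH). NFKB1, a subunit of the inflammatory factor NF-kB, differed most among the signalling genes above the floor, at -0.37 (CD133) and -0.51 (ALDH). The glucocorticoid receptor gene NR3C1 followed in the CD133 sort (-0.25), and IL6ST, the signalling chain of the interleukin-6 receptor, in the ALDH sort (-0.32). STAT3, the main transcription factor of that response, stood at 9.20 in CD133+ and 8.96 in CD133- cells, and at 9.03 in ALDH+ and 9.30 in ALDH- cells.

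Of 13 liver transcription factors, 9 were measured by a probe with 1 symbol, and the other 4 were not analysed here. All 9 were above the floor. In CD133+ cells 6 of 9 were lower, against 57.1% of all genes, with a median of -0.09, and in ALDH+ cells 4 of 9, against 51.5%, with a median of 0.03. PROX1 (-0.58) and ONECUT1 (-0.44) differed most in the CD133 sort, and ONECUT1 (0.32) and FOXA2 (-0.26) in the ALDH sort. CEBPA, CEBPB and CEBPD, factors of the C/EBP family, lay within 0.10 of their partner fraction in the CD133 sort. In the ALDH sort their differences were 0.17 (CEBPA), -0.02 (CEBPB) and 0.12 (CEBPD).

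All 11 genes of receptors and uptake were measured. In CD133+ cells 4 of the 9 above the floor were lower, against 57.1% of all genes, with a median of 0.03, and in ALDH+ cells 7 of 10, against 51.5%, with a median of -0.13. CUBN, the endocytic receptor cubilin, which takes up albumin and transferrin in the kidney, was the only one at 2-fold in either sort. It stood at 5.74 in CD133+ and 3.89 in CD133- cells, and at 4.72 in ALDH+ and 6.58 in ALDH- cells. CUBN lay below the floor in the dimmer fraction of both sorts, and against the floor its differences were 0.76 (CD133, short of 2-fold) and -1.59 (ALDH). TFRC, the transferrin receptor, differed by 0.14 (CD133) and -0.41 (ALDH), and FCGRT, which recycles albumin, by 0.03 (CD133) and 0.25 (ALDH).

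**Figure D4:**
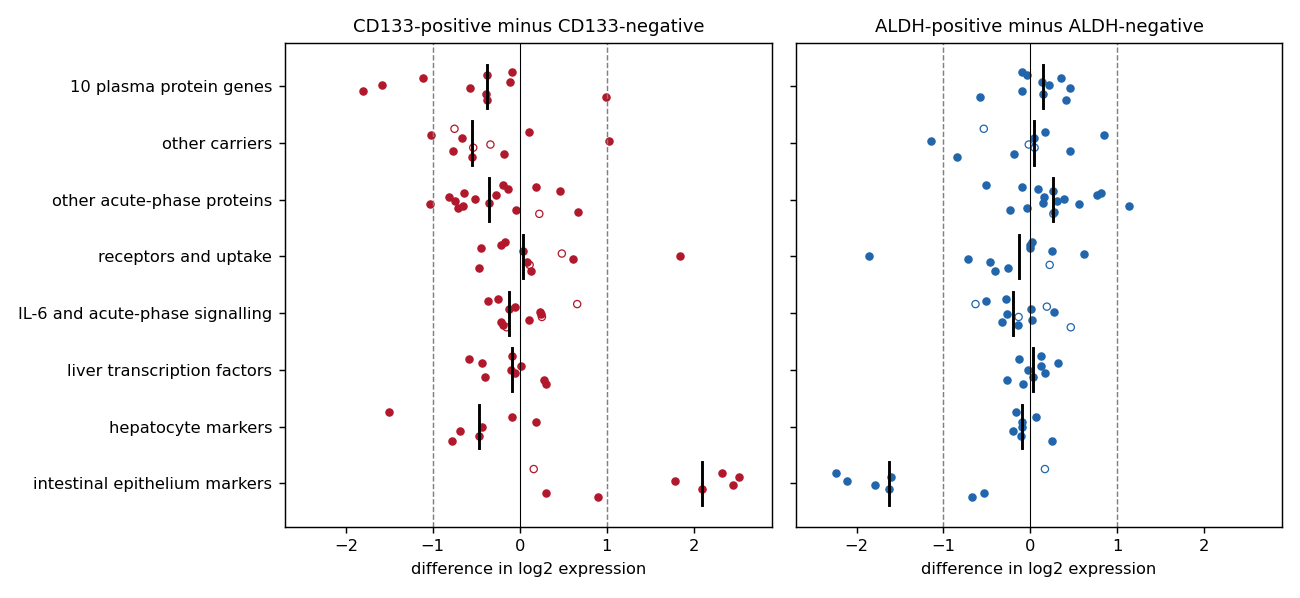
Difference in log2 expression (x axis) of each gene of the related lists (y axis), CD133 sort on the left and ALDH sort on the right; filled points are genes above the floor, open points genes below it, black bars list medians over the filled points and dashed lines 2-fold. Plasma protein lists centre left of 0 in the CD133 sort, medians of signalling genes and transcription factors lie between -0.20 and 0.03, and the intestinal markers lie far right in the CD133 and far left in the ALDH sort.

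Genes of another epithelium moved with the same contrast. Of 8 intestinal epithelium markers, a list written with these results in view, 7 were above the floor, and all 7 were higher in CD133+ cells, against 42.9% of all genes, with a median of 2.10. At least 2-fold higher were 5 of them (CDH17, SI, LCT, MUC13 and SLC26A3), against 0.716% of all genes. In ALDH+ cells the 7 were lower, against 51.5%, with a median of -1.62, and the same 5 were at least 2-fold lower, against 1.30%. The mean level of the 8 was 7.34 in CD133+ and 5.77 in CD133- cells, and 6.57 in ALDH+ and 7.87 in ALDH- cells. The intestinal regulator CDX2 differed by 0.90 (CD133) and -0.68 (ALDH), while FABP2, a defining marker of enterocytes, stayed between 1.85 and 2.45, below the floor on every array. The 7 hepatocyte markers, which share FGB with the acute-phase list, were lower in CD133+ cells for 6 of 7, against 57.1% of all genes, with a median difference of -0.47 and SERPINC1, the gene of antithrombin, at least 2-fold lower (-1.50). In ALDH+ cells 5 of 7 were lower, against 51.5%, with a median of -0.10. The part of these genes in the differences of the plasma protein genes was not tested.

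Across the 4 arrays, the genes most like HP were sought among the 10251 others above the floor on all arrays, by the distance between profiles centred on each gene's mean. The nearest were SERPINC1 (distance 0.34), AHSG (0.42), ADH6, an alcohol dehydrogenase (0.53), GPAM, which starts glycerolipid synthesis (0.63), and SLC38A3, a glutamine transporter (0.64). ORM1 was the 11th nearest, at 0.70. For TTR the nearest were SPARC, a matrix glycoprotein (0.07), FBLN5, fibulin-5 of elastic fibres (0.08), QSOX1, which forms disulphide bonds (0.10), PAK5, a protein kinase (0.10), and TIMP1, an inhibitor of matrix metalloproteinases (0.11). SPARC stood at 7.83 in CD133+ and 6.74 in CD133- cells, and at 7.40 in ALDH+ and 8.02 in ALDH- cells. No plasma protein gene of the list was near TTR, and the nearest of them, SERPINA1, lay at 0.97. A profile over 4 arrays has few points, and large differences in 1 sort dominate such distances.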

How the data were processed

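Biotin-labelled RNA, prepared with Trizol per the labels' protocols, was measured on 4 arrays, 1 per fraction. The deposited values are log2 expression values that the authors made with RMA, per the submitters' processing notes; software, version, build and any later filter are not given in the sources used here. The range, 0.556 to 13.5, is that of a log2 scale. RMA draws arrays towards 1 distribution and compresses differences of dim probes.

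Of 28869 probes, 19310 carry exactly 1 symbol in the platform annotation, 1752 several and 7807 none there; 19279 matched a RefSeq gene (GRCh38.p14). A gene's value was its probe with the highest mean. Fractions were subtracted within each sort, with no test. limma (lmFit, eBayes) was fitted over 12177 genes with marker status and sort as terms, and was tested on simulated data. The number of arrays limits the precision.

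The 10 genes and the lists were chosen with earlier results of these data known, and the motifs after seeing the values. All 10 genes are named; of the other lists, members at 2-fold in a sort or else the 2 with the largest difference above the floor, and the 5 nearest profiles for the gene with the largest difference in each sort. STAT3, the C/EBP genes, TFRC, FCGRT, CDX2, FABP2, AFP, PTPRC, DCN and the levels of SPARC were named after their values were seen. Alternatives were the mean over probes, centring, a second quantile normalization, loess (span 0.4), values raised to the floor, 1.5-fold, a higher floor and other limma settings. R 4.3.3, limma 3.58.1, Python 3.11.15 and statsmodels 0.14.6 were used.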

Additional observations from a re-analysis of the deposited data

Results flagged for a closer look

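For 7 genes the positive fraction lay on opposite sides of its negative fraction in the CD133 and ALDH sorts. Each fraction is 1 array and the difference between the sorts was not tested. The CD133 difference minus the ALDH difference, on the log2 scale, was -1.79 for AHSG, -1.46 for ORM1, -1.02 for HPX, -0.79 for ALB, -0.53 for TF, -0.25 for AMBP and 1.58 for TTR. Opposite signs occurred in 48.5% of the 11293 genes above the floor in both sorts. The ALDH labels, on which these signs rest, were not checked by PROM1 or ALDH1A1.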

How the results depend on the processing

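The counts and medians of the 10 genes held their direction under the alternatives run. In the CD133 sort 3 or 4 genes were at 2-fold, 4 where TTR passed it, and the median lay between -0.38 and -0.34; in the ALDH sort 0 genes were at 2-fold, and the median lay between 0.11 and 0.22. At 1.5-fold, a count over scalings that was added after seeing the data, the CD133 sort had 4 of the 10, and the ALDH sort had 0 in the deposited values and 1, TTR, when centred or fitted with loess. Every one of the 10 has 1 probe and lies above the floor, so averaging probes or raising values to the floor could not move them. Of 60 values under the other 3 scalings, 0 changed sign and 1 moved by over 0.1, that of TTR in the ALDH sort after a second quantile normalization (-0.47). The limma counts of 0 held with all genes, with trend and robust eBayes, without the second term and with probe means. Leaving out 1 array in the fit of status alone, a lone array being assumed to vary like the rest, gave 0 to 80 genes: 80 without CD133-, 38 without ALDH- and 0 without either positive fraction. Without ALDH-, HP was called (-1.50, adjusted p of 0.000271 in limma); of the 10 it was the only one called, with AHSG at an adjusted p of 0.0501. For the sort term all 4 such fits gave 0 genes. The sort term of the main model pairs the fractions of a sort, and the labels give no replicate numbers for another pairing. Differences of genes dimmer than the floor are limited by background signal, and the 10 genes lay above it on every array.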
